A study of Mus musculus with 16 samples.

Results

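The genes described here are 46 mouse genes of the cell division cycle, 29 of them acting mainly at the entry into and through S phase (G1/S) and 17 mainly in G2 and mitosis (G2/M). Their promoters were taken from a table of 70150 ATAC-seq peaks as the peaks that lay at most 1000 bp from a transcription start site (TSS) and carried one of the 46 symbols as their gene name. The rule used no measured value, although the members and classes were chosen with earlier results of these data known. It found 45 promoter peaks at 41 of the 46 genes, 30 peaks at 26 G1/S genes and 15 peaks at 15 G2/M genes, out of 18884 promoter peaks in all. ATAC-seq counts the cuts that the transposase Tn5 makes in open DNA, so a count at a promoter measures how accessible it is, not how much RNA the gene gives.

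The cells were E14 embryonic stem (ES) cells, a male mouse line, grown in serum with leukaemia inhibitory factor and inhibitors of GSK3 and MEK, with 4 libraries in each of 4 groups. These are the Supt7l KO line, the lines AID-Yeats2 and AID-Zzz3, and wild-type cells (WT). AID is the auxin-inducible degron, which directs the fused protein to the proteasome once auxin is added. The labels give auxin (IAA) for 24 h to every line, WT and the knockout included, so no group here is free of auxin. Zzz3 and Yeats2 belong to the ATAC complex and Supt7l to the SAGA complex, 2 coactivators that share a histone acetyltransferase module. The design text mentions 2 days and 2 independent clones, without saying which library came from which, so the p-values below measure the spread between these libraries and cannot separate a line from its clones.

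Progress through the cycle is driven by cyclin-dependent kinases. D cyclins with Cdk4 and Cdk6 phosphorylate the retinoblastoma proteins and free the E2F factors, which turn on cyclin E, the origin-licensing genes and the replication helicase. Genes of mitosis are held down by the DREAM complex in G1 and activated late by MYBL2 and FOXM1, through the cell cycle homology region (CHR) and CCAAT boxes near their starts. Mouse ES cells divide fast with a short G1.

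The libraries held between 2492045 and 5540559 counts in peaks, and a member's main promoter peak held 29 to 484 counts per library with a median of 146. Levels are given as CPM, a peak's count relative to its library's total in peaks after TMM scaling. Fold changes come from edgeR's quasi-likelihood fit of all 16 libraries, and a peak is called where its p, adjusted over the 69692 peaks tested by the method of Benjamini and Hochberg, is under 0.05. The SE printed after a log2 fold change comes from the library values and is not the error behind the edgeR p beside it. Where a gene had several promoter peaks, the one with the highest mean stood for it. All 8 ES cell markers examined had a promoter peak, with a median accessibility per kb at the 79.3rd percentile of promoters, while 2 of 4 fibroblast markers had one, at the 11.5th percentile. Other lineages were less low, with peaks at 3 of 3 neuroectoderm markers (70.8th), 3 of 4 of primitive endoderm (68.9th) and 4 of 4 of trophoblast (51.1st). Promoter accessibility thus did not set ES markers clearly apart from these. The Supt7l KO libraries held 0 to 2 counts over the 7 chromosome Y peaks, against 114 to 370 in the other 12 libraries. No gene of the 46 lies there, and this feature of the line cannot be told apart from the knockout. The peaks named for Zzz3 and Yeats2 were not called in any mutant against WT, which says nothing of the tagged proteins, and Supt7l itself was not analysed here. In bulk libraries, fewer cells with an open promoter and a less open promoter per cell cannot be told apart.

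Of the 41 genes with a promoter peak, 37 lay above the median promoter in accessibility per kb. The median member had 32.9 CPM per kb, at the 78.3rd percentile of the 15556 genes tested at their promoter, and its width of 1075 bp was close to the 1053.5 bp of all promoters. All 26 G1/S promoters were above the median promoter, with a range of 22.7 to 68.8 CPM per kb, as were 11 of 15 G2/M promoters, with a range of 17.6 to 66.0. The sliding clamp gene Pcna (68.8 CPM per kb), the spindle checkpoint gene Mad2l1 (66.01) and the helicase subunit gene Mcm3 (60.6) stood highest, and the phosphatase gene Cdc25b (17.6), the kinase gene Aurkb (18.7) and the proliferation marker Mki67 (20.5) lowest. The 5 genes with no promoter peak by the rule were Ccnd2, Skp2 and Rrm2 among the G1/S genes and Cdc25c and Aurka among the G2/M genes. Ccnd2 and Skp2 had 2 peaks each farther from a start. The RefSeq start of Aurka lay in a promoter peak that carries the name of its neighbour Cstf1, and that of Cdc25c in one named 2010110K18Rik.

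Promoter sequences from RefSeq (GRCm38.p6, which is mm10) were found for 36 of the 46 genes, each 300 bases from 250 before to 50 after the start. Aurkb, Ccne2, Ccna2, Mcm4, Wee1, Gmnn, Ccnd2, E2f4, Ccnd1 and Cdc25c had no entry in the table used. Exact matches were searched on both strands for the E2F site (TTTNGCGC or TTTNCCGC), the CHR (TTTGAA), the CCAAT box (CCAAT) and the SP site (GGGCGG). Matches were counted even where they overlap. The 150 bases before the start are shown for 3 G1/S and 4 G2/M genes, to show how the motif content differs between the classes. They run 5′ to 3′ on the strand of the gene. Capitals mark E2F, CHR and CCAAT matches in either direction, so that ATTGG is a CCAAT box on the other strand. The stretches lie at chr9:109875429-109875578 (plus strand), chr8:75109359-75109508 (plus), chr1:128359706-128359855 (minus), chr4:118437344-118437493 (minus), chr10:69352913-69353062 (minus), chr7:135716380-135716529 (minus) and chr9:36726659-36726808 (minus).
Cdc25a: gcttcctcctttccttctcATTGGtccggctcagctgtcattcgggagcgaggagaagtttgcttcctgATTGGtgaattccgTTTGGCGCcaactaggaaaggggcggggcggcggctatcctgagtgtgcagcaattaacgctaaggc
Mcm5: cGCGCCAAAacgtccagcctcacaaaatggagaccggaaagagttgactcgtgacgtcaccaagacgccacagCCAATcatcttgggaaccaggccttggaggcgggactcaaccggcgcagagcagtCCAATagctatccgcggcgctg
Mcm6: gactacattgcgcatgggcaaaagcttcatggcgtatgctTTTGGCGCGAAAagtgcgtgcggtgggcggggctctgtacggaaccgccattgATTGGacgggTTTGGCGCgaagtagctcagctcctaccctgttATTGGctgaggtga
Cdc20: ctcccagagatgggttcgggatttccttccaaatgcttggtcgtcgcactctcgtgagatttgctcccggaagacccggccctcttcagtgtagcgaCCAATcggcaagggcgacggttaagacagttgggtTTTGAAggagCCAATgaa
Cdk1: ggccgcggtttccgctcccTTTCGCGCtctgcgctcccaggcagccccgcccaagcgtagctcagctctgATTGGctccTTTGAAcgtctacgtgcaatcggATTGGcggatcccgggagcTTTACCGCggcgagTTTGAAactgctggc
Mki67: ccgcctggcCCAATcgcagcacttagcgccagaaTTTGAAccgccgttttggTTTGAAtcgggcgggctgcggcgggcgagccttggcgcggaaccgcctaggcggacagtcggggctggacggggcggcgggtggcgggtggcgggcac
Chek1: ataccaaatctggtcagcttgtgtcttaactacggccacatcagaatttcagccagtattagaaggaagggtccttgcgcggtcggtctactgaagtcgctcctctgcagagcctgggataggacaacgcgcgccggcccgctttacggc

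The Cdc25a stretch has 1 E2F match, 60 to 67 bases before the start, between the start and 2 CCAAT boxes. Mcm6 has 3 E2F matches, of which 2 overlap on opposite strands, and Cdc20 has a CHR 13 to 18 bases before its start with CCAAT boxes on either side. Mki67 carries 2 CHR matches, and Cdk1 is the only one of the 13 G2/M promoters that holds an E2F match. The Chek1 promoter held none of the 4 motifs in its 300 bases. An E2F match was found in 10 of 23 G1/S promoters (43.5%), in 1 of 13 G2/M promoters (7.69%) and in 3.57% of the 27025 promoters of the table. A CHR was found in 61.5% of the G2/M promoters, 21.7% of the G1/S promoters and 18.1% of all. CCAAT boxes were in 84.6%, 73.9% and 37.9%, and the SP site was in 76.9%, 78.3% and 35.9%, in the same order. Among the 10661 genes with both a sequence and a promoter peak, the shares were 5.69% for E2F, 11.8% for the CHR, 38.7% for CCAAT and 61.6% for SP. A match describes letters and not a bound factor.

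Each mutant was compared with WT to ask where accessibility depends on the 2 complexes. At cell cycle promoters the median log2 fold change was -0.17 in AID-Zzz3, -0.21 in AID-Yeats2 and 0.13 in Supt7l KO, beside -0.11, -0.12 and 0.090 over all 15556 promoters. With loess offsets, which remove trends of fold change with level, the member medians were -0.085, -0.11 and 0.043, beside -0.060, -0.056 and 0.034 over all promoters. The 3 comparisons share the WT libraries. In AID-Zzz3, 35 of 41 members had a fold change below 0, as had 68.8% of all promoters. In AID-Yeats2 they were 38 of 41, beside 70.1%. In Supt7l KO 32 of 41 were above 0, as were 10671 of all 15556 promoters. Single genes passed the test rarely. Wee1, the kinase that restrains Cdk1, was 1.41-fold lower in AID-Zzz3 (log2 -0.49 ± 0.071, SE; adjusted p = 0.0212, edgeR), the only 1 of 41 members called, where 0.913% of all promoters were called lower and 0.302% higher. Cdc25a, the phosphatase that activates Cdk2 and so promotes entry into S phase, was 1.51-fold lower in AID-Yeats2 (log2 -0.60 ± 0.16, SE; adjusted p = 0.0230, edgeR), again the only member of 41, where 0.849% of all promoters were called lower and 0.186% higher. In Supt7l KO no member was called by edgeR or by DESeq2, beside 0.508% of all promoters called higher and 0.386% called lower. There, 3 members were higher at an unadjusted p under 0.05, as were 8.68% of all promoters, and the smallest adjusted p was 0.214 (edgeR). Both calls were lost with loess offsets and when certain single libraries were left out, as given with these genes. All 4 AID-Zzz3 libraries lay below all 4 WT libraries at 3 member promoters (7.29% of all promoters), all AID-Yeats2 libraries below WT at 6 (8.32%) and all Supt7l KO libraries above WT at 4 (5.21%).

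Across the groups, replicates 1 and 2 formed one set of libraries and replicates 3 and 4 another. Over all tested peaks, the deviations from the group means correlated positively in all 24 pairs of libraries from different groups with the same number (0.0163 to 0.111) and in all 24 with another number of the same set (0.0231 to 0.103), and negatively in all 48 pairs from different sets (-0.109 to -0.0167). Deviations add up to 0 within a group, so positive and negative correlations come together. The labels do not say what the sets are, and the fit used here has no term for them. With the sets as a block, Wee1 (log2 -0.49, adjusted p = 0.00785, edgeR) and Cdc20 (-0.47, 0.0460) were called lower in AID-Zzz3. In AID-Yeats2 they were Cdc25a (log2 -0.60, adjusted p = 0.00695, edgeR), E2f2 (-0.56, 0.0472) and Wee1 (-0.41, 0.0336), and in Supt7l KO none. Within replicates 1 and 2 the member medians were -0.094 in AID-Zzz3, -0.19 in AID-Yeats2 and 0.11 in Supt7l KO, and within replicates 3 and 4 they were -0.19, -0.22 and 0.16. With 2 libraries a group no member was called in either set by edgeR.

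**Figure D1:**
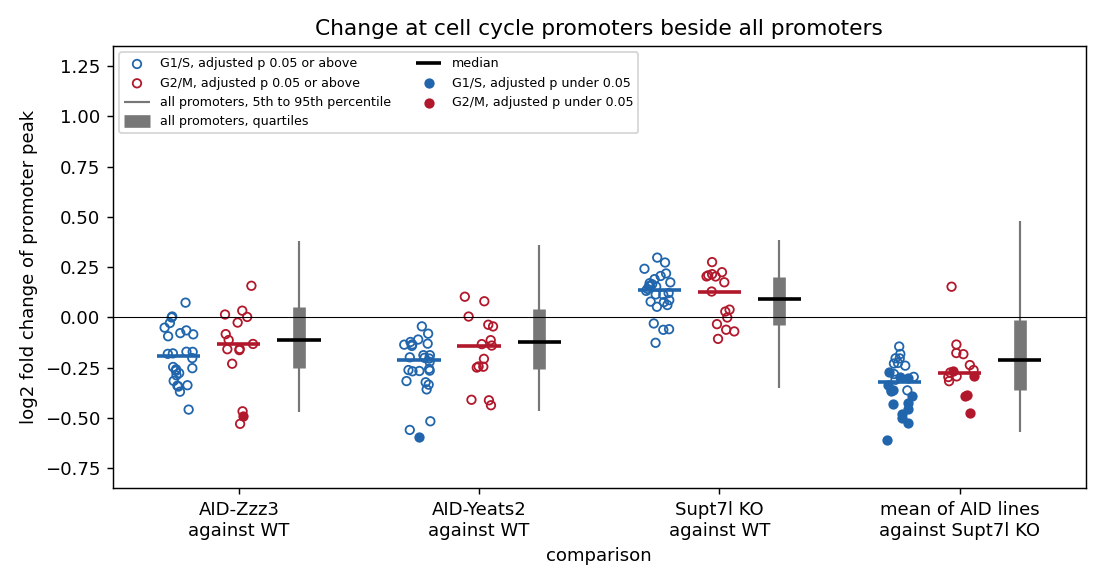
Log2 fold changes of the promoter peaks of 26 G1/S genes (blue) and 15 G2/M genes (red), with filled points at an adjusted p under 0.05 and bars at the medians, beside the quartiles and the 5th to 95th percentile of all 15556 promoters (grey). Member medians lie below 0 in both AID lines (-0.17 and -0.21), above 0 in Supt7l KO (0.13) and lowest in the comparison of the AID lines with Supt7l KO (-0.30), where 20 points are filled.

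G1/S and G2/M promoters had like medians in every comparison. In AID-Zzz3 the G1/S median was -0.19 and the G2/M median -0.13, in AID-Yeats2 they were -0.21 and -0.14, and in Supt7l KO they were 0.14 and 0.13. The difference of the medians was therefore -0.060, -0.073 and 0.0083. Library by library, the G1/S median minus the G2/M median was -0.013, 0.069, -0.023 and -0.00025 in WT and 0.072, -0.13, -0.18 and -0.14 in AID-Yeats2. In AID-Zzz3 it was -0.072, -0.082, 0.088 and -0.023, and in Supt7l KO 0.045, -0.0028, 0.0056 and -0.0020. Each mutant group overlapped WT, so the difference between the classes was within the spread between libraries.

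The median over all 41 members, relative to the WT mean, was -0.13, -0.056, -0.19 and -0.23 in the AID-Zzz3 libraries and -0.13, -0.18, -0.20 and -0.27 in the AID-Yeats2 libraries. It was 0.21, 0.14, 0.17 and 0.078 in Supt7l KO and 0.078, -0.0032, -0.10 and 0.018 in WT. All 8 AID libraries were thus below 0 and all 4 Supt7l KO libraries at or above the highest WT library. The same medians over all promoters were -0.090, -0.042, -0.13 and -0.14 in AID-Zzz3, -0.096, -0.11, -0.12 and -0.11 in AID-Yeats2, and 0.089, 0.12, 0.056 and 0.098 in Supt7l KO. The member median minus the median of all promoters ran from -0.093 to 0.069 in WT, from -0.091 to -0.015 in AID-Zzz3, from -0.16 to -0.034 in AID-Yeats2 and from -0.020 to 0.12 in Supt7l KO. These ranges overlap that of WT in all 3 mutants.

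**Figure D2:**
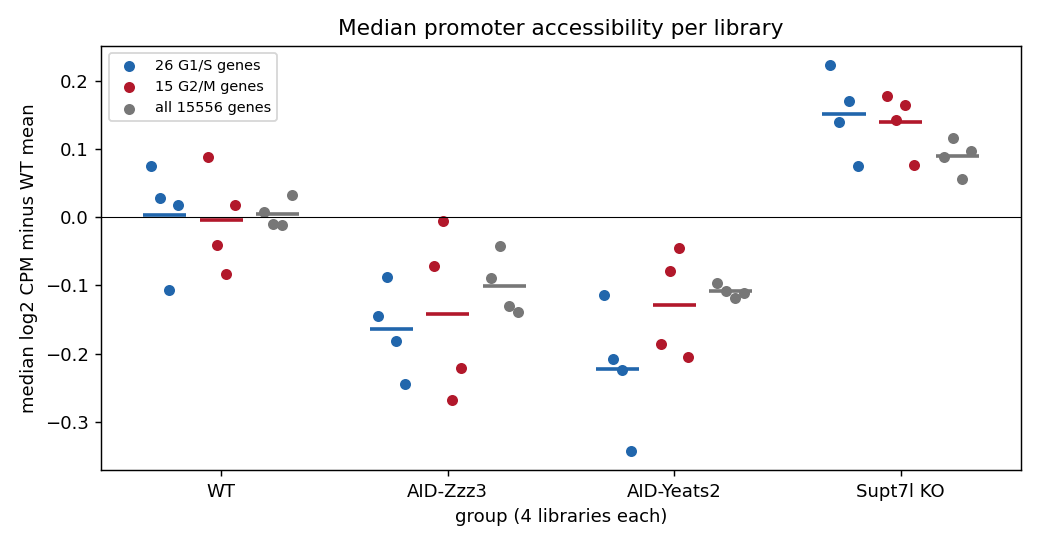
Median log2 CPM relative to the WT mean in each of the 16 libraries (points) with the group mean (bar), for 26 G1/S genes, 15 G2/M genes and all 15556 genes with a tested promoter peak. The G1/S and G2/M points of a group intermingle, with AID libraries below 0 and Supt7l KO libraries between 0.076 and 0.22.

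The mean of both AID lines was set against Supt7l KO to ask whether the lines of the ATAC subunits differ from that of the SAGA subunit. These lines also differ in kind, degron against knockout, and in their chromosome Y counts. The complex cannot be told apart from either. Here 20 of 41 members were called lower and none higher (edgeR), 48.8% of them, where 24.0% of all promoters were called lower and 3.47% higher. The called members were 15 of 26 G1/S genes and 5 of 15 G2/M genes. The median was -0.30 (G1/S -0.32, G2/M -0.27) beside -0.21 for all promoters, and 40 of 41 members were below 0, as were 76.2% of all promoters. Calls were more frequent at promoters with a high mean CPM over the whole peak, which is not the accessibility per kb. In bin 1 of 10 bins of mean CPM, the lowest, the median of all promoters was 0.067, with 1.99% called lower. In bin 5 it was -0.23, with 20.45% called, and in bin 10 it was -0.26, with 49.04% called. The median thus fell with level over the lower bins. From bin 5 to bin 10 the share called rose with little change in the median. Among promoters above the median level, 37.4% were called lower, and among the 31 members above it 19 were. Among the 1556 promoters highest in mean CPM, 8 of 11 members were called, beside 49.04% of all of them, and among the 1555 that come next 6 of 8, beside 41.67%. In 7 genes every AID library lay below every Supt7l KO library, beside 9.83% of all promoters: Ccna2, Ccnb1, E2f2, E2f3, Gmnn, Mcm7 and Orc1.

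These calls depend on how the libraries are scaled. With loess offsets 3 members were called, Cdt1 (-0.38, adjusted p = 0.0410) and Mcm2 (-0.55, 0.0221) lower and Chek1 higher (0.39, 0.00390), and with library totals in place of TMM there were 11. With the sets of replicates as a block 22 were called, the same 20 with E2f1 and Mad2l1, and within the sets 6 in replicates 1 and 2 and 7 in replicates 3 and 4. Leaving out Supt7l KO replicate 1 left 10 calls, and each of the other 11 omissions left 14 to 20. The calls of Ccnb1, Cdc45, Cdk4, Cdt1, E2f3, Mcm4, Mcm7 and Pcna stood in all 12 omissions. E2f2 and Mcm2 lost theirs only without Supt7l KO replicate 1 (adjusted p = 0.0632 and 0.156) and Wee1 only without Supt7l KO replicate 2 (0.0663), and the other 9 lost theirs in 2 to 9 omissions, with a highest adjusted p between 0.0631 and 0.219. The summed CPM of the 8 ES markers was 243 to 293 in the AID libraries and 296 to 311 in Supt7l KO. That of the fibroblast markers, of which Col3a1 and Thy1 had no peak, was 25.0 to 38.3 and 19.1 to 23.7. The sums for primitive endoderm, trophoblast and neuroectoderm markers overlapped between the AID libraries and Supt7l KO. The part of any of these markers in the differences was not tested. AID-Yeats2 and AID-Zzz3 themselves were not told apart: by edgeR and by DESeq2 no member was called, and by edgeR 0.0% of all promoters were. At an unadjusted p under 0.05, 2 members were lower in AID-Yeats2 (2.55% of all promoters), Cdc25a (log2 -0.35 ± 0.17) and Cdk4 (log2 -0.26 ± 0.15).

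**Figure D3:**
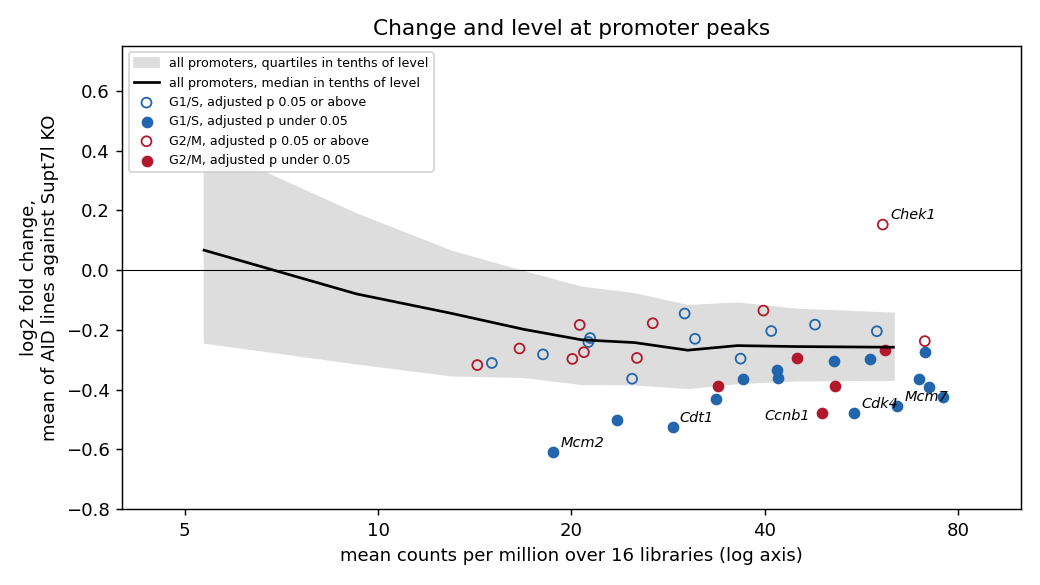
Log2 fold change of the mean of the AID lines against Supt7l KO plotted against mean CPM over 16 libraries (log axis) for 41 cell cycle promoters, over the quartiles and median of all promoters in 10 bins of level. Most filled points sit at the right, where the median of all promoters is near -0.26 and up to 49.04% of promoters were called lower, and Chek1 is the 1 member above 0.

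**Figure D4:**
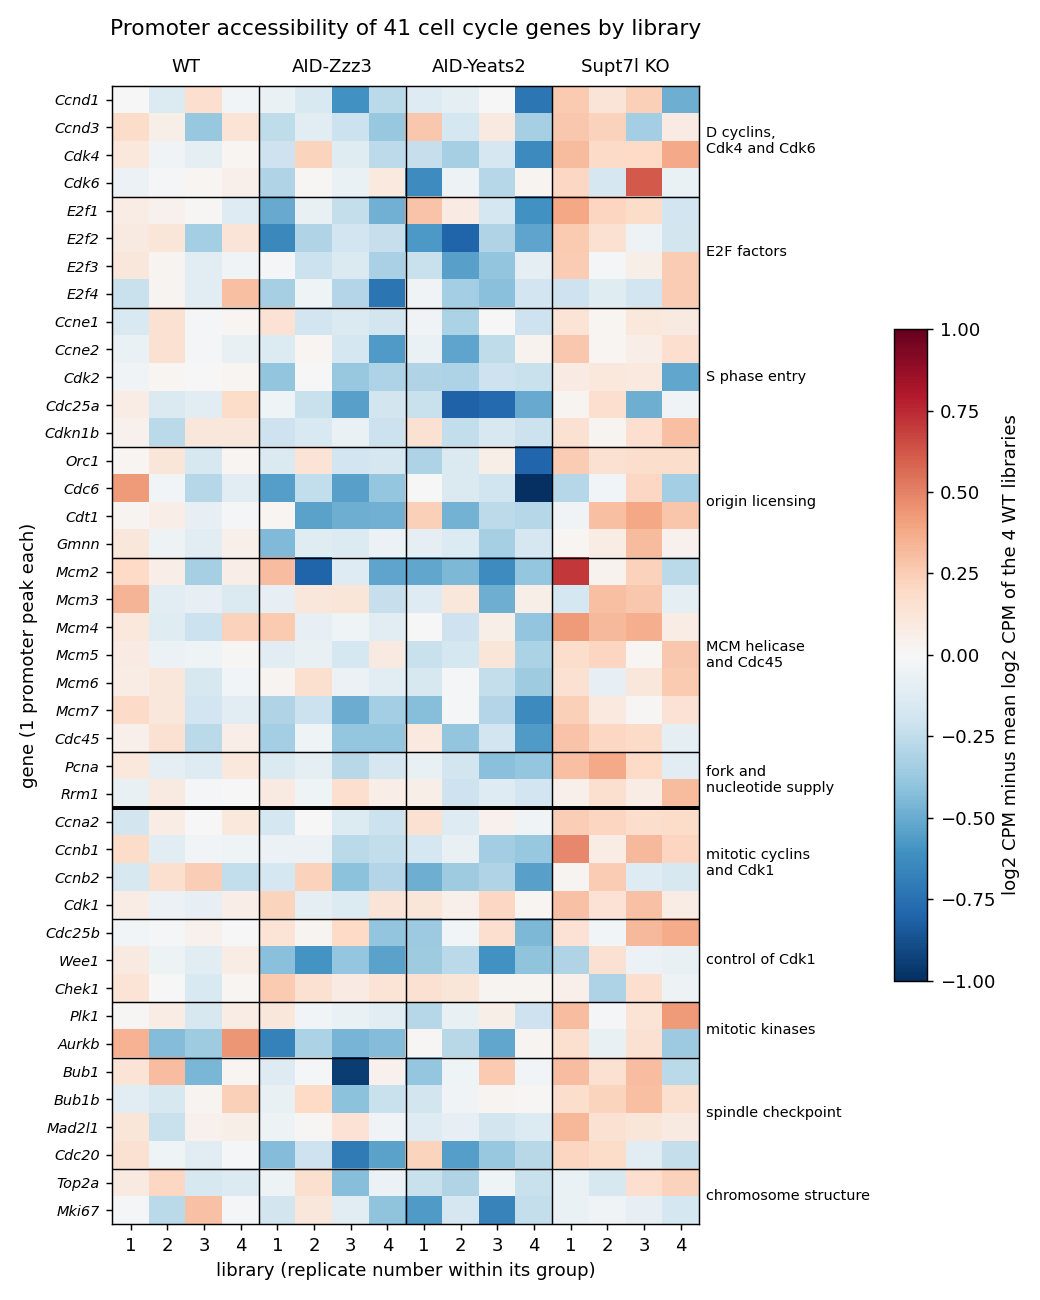
Log2 CPM minus the WT mean in each of the 16 libraries (columns) for the promoter peaks of 41 genes (rows), ordered by role with G1/S genes above the thick line and G2/M genes under it. Blue prevails in the AID libraries and red in the Supt7l KO libraries, and Wee1 is blue in all 8 AID libraries.

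D cyclins and Cdk4 and Cdk6 start the phosphorylation of the retinoblastoma proteins. Of their 4 measured promoters none was called in any mutant against WT. Cdk4 alone was called lower in the AID lines than in Supt7l KO, where 24.0% of all promoters were. The Cdk4 peak (chr10:127063154-127064556) gave 59.98, 54.3, 52.5 and 56.6 CPM in WT, 48.3, 65.04, 51.2 and 46.5 in AID-Zzz3, 47.5, 44.3, 49.5 and 35.8 in AID-Yeats2, and 69.7, 63.8, 63.98 and 72.6 in Supt7l KO. All AID-Yeats2 libraries were below WT and all Supt7l KO libraries above it, while AID-Zzz3 spanned the WT range. The fold changes against WT were -0.34 ± 0.11 in AID-Yeats2 (adjusted p = 0.167, edgeR), -0.079 in AID-Zzz3 (0.814) and 0.27 ± 0.062 in Supt7l KO (0.286). Between the AID lines and Supt7l KO Cdk4 differed by -0.48 ± 0.088 (SE; adjusted p = 0.000417), the smallest adjusted p of the 41 genes. Ccnd1, among the lowest of the G1/S genes in level, gave 16.02, 14.6, 18.2 and 15.8 CPM in WT, 15.3, 14.5, 10.4 and 13.3 in AID-Zzz3, 14.7, 14.99, 16.001 and 9.53 in AID-Yeats2, and 19.4, 17.6, 19.1 and 11.3 in Supt7l KO at chr7:144939527-144940125. Its 4 groups overlapped, and its second peak, 548 bp from a start and in an intron of another transcript, gave 3.47 to 8.09 CPM over all libraries. Ccnd3 and Cdk6 had fold changes between -0.25 and 0.17 against WT, none called.

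E2F1, E2F2 and E2F3 are activators of S phase genes and E2F4 acts mostly as a repressor with the DREAM complex. E2f2 (chr4:136180028-136181031) gave 28.5, 29.1, 21.05 and 29.4 CPM in WT, 16.98, 21.7, 23.4 and 22.8 in AID-Zzz3, 17.8, 15.2, 21.7 and 18.5 in AID-Yeats2, and 32.1, 29.8, 25.8 and 23.5 in Supt7l KO. WT replicate 3 stood apart from the other 3 WT libraries, and with it the WT range overlapped both AID lines. Against WT the change was -0.56 ± 0.15 in AID-Yeats2 (adjusted p = 0.0814, edgeR) and -0.34 ± 0.15 in AID-Zzz3 (0.330), and against Supt7l KO the AID lines were lower by a called -0.50 ± 0.12 (0.00907). E2f3 (chr13:29985158-29986734) gave 82.1, 77.2, 70.2 and 73.8 CPM in WT, 74.6, 65.04, 68.4 and 60.5 in AID-Zzz3, 64.98, 51.7, 57.6 and 70.6 in AID-Yeats2, and 90.5, 74.7, 79.05 and 90.6 in Supt7l KO. All 8 AID libraries were below the 4 Supt7l KO libraries, a called difference of -0.39 ± 0.091 (adjusted p = 0.00186, edgeR), and AID-Yeats2 alone differed from WT by -0.32 ± 0.11 without a call (0.148). E2f1 is served by 2 promoter peaks. The upstream one (chr2:154569773-154570622) gave 27.01, 26.4, 25.9 and 23.4 CPM in WT, 17.98, 24.3, 21.7 and 18.3 in AID-Zzz3, 31.3, 27.1, 22.6 and 16.7 in AID-Yeats2, and 33.6, 29.8, 29.2 and 22.4 in Supt7l KO. It overlapped in all groups and was not called in any comparison. The peak in the first exon (chr2:154568896-154569520) gave 15.1, 13.2, 10.3 and 12.4 CPM in WT, 10.7, 11.3, 9.57 and 10.8 in AID-Zzz3, 7.53, 8.62, 11.6 and 8.64 in AID-Yeats2, and 14.5, 16.4, 19.1 and 12.7 in Supt7l KO. There every AID library lay below every Supt7l KO library (log2 -0.66 ± 0.14, adjusted p = 0.00817, edgeR). E2f4 had -0.34 in AID-Zzz3 and -0.27 in AID-Yeats2, neither called.

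Cyclin E with Cdk2, the phosphatase Cdc25a and the Cdk inhibitor Cdkn1b (p27) set the entry into S phase. The Cdc25a peak (chr9:109875185-109876039), which holds the E2F match shown above, gave 44.7, 38.4, 39.6 and 48.3 CPM in WT, 41.3, 36.4, 28.99 and 37.5 in AID-Zzz3, 36.5, 24.02, 24.6 and 29.8 in AID-Yeats2, and 43.4, 47.8, 30.1 and 41.4 in Supt7l KO. All 4 AID-Yeats2 libraries were below the lowest WT library, and the group means were 28.7 ± 5.77 against 42.7 ± 4.60 CPM (SD, n = 4). AID-Zzz3 and Supt7l KO overlapped WT, with fold changes of -0.25 ± 0.13 (adjusted p = 0.422, edgeR) and -0.059 ± 0.16 (0.908). The AID-Yeats2 call was lost without AID-Yeats2 replicate 2 (adjusted p = 0.133) or 3 (0.102) or WT replicate 1 (0.0772) or 4 (0.107), and with loess offsets (0.0855). In the authors' deposited table the adjusted p of this peak was 0.0328 for AID-Yeats2, where 0.461% of all peaks with a value were lower at an adjusted p under 0.05. Against Supt7l KO the AID lines were lower by -0.36 ± 0.17 (0.0302), with overlapping libraries.

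Ccne2, which codes for cyclin E2, has a peak at its start and a second one upstream. The peak at the start (chr4:11191101-11192456) gave 41.5, 48.3, 43.2 and 41.3 CPM in WT, 39.6, 44.1, 38.6 and 29.3 in AID-Zzz3, 41.6, 29.98, 36.4 and 44.7 in AID-Yeats2, and 52.5, 44.1, 45.5 and 48.9 in Supt7l KO. The groups overlapped, and the AID lines were called lower than Supt7l KO (log2 -0.34 ± 0.10, adjusted p = 0.0298, edgeR). The upstream peak (chr4:11190064-11191009), which lies 815 bp before the start of another transcript of the gene, gave 24.96, 27.5, 24.5 and 24.1 CPM in WT, 17.3, 20.7, 12.4 and 19.5 in AID-Zzz3, 15.1, 18.5, 16.5 and 19.1 in AID-Yeats2, and 24.5, 26.4, 25.5 and 27.1 in Supt7l KO. There all 8 AID libraries were below all 4 WT and all 4 Supt7l KO libraries. The changes of -0.52 ± 0.17 in AID-Zzz3 and -0.54 ± 0.087 in AID-Yeats2 against WT were not called (adjusted p = 0.109 and 0.103), and that against Supt7l KO was (-0.57 ± 0.094, 0.00373). Cdkn1b (chr6:134919641-134921308) gave 53.5, 43.002, 56.3 and 56.4 CPM in WT, 44.9, 46.7, 49.5 and 44.8 in AID-Zzz3, 57.9, 43.7, 46.5 and 44.7 in AID-Yeats2, and 57.9, 52.9, 58.4 and 64.1 in Supt7l KO. Its AID libraries overlapped those of Supt7l KO, with a called difference of -0.30 ± 0.074 (adjusted p = 0.0295, edgeR). Ccne1 and Cdk2 were called nowhere. Cdk2 was at -0.26 ± 0.029 in AID-Yeats2 with all 4 libraries below WT (adjusted p = 0.423, edgeR). Its small SE reflects library values that happened to lie close together and is not the error of the fit.

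Origins are licensed when ORC, Cdc6 and Cdt1 load the MCM helicase, and geminin (Gmnn) blocks Cdt1 after S phase has begun. Cdt1 (chr8:122567319-122568309) gave 30.4, 31.2, 28.2 and 29.6 CPM in WT, 30.3, 20.5, 21.1 and 21.3 in AID-Zzz3, 35.3, 21.4, 24.9 and 24.4 in AID-Yeats2, and 29.2, 36.9, 39.1 and 36.2 in Supt7l KO. In both AID lines replicate 1 was high, in AID-Zzz3 at 30.3 CPM against 20.5 to 21.3 in the other 3 libraries. Cdt1 was called lower in the AID lines than in Supt7l KO (log2 -0.53 ± 0.14, adjusted p = 0.00304, edgeR) and not called against WT in AID-Zzz3 (-0.37 ± 0.13, 0.243). Orc1 (chr4:108578831-108580003) gave 43.4, 46.5, 38.3 and 43.3 CPM in WT, 38.6, 46.97, 37.4 and 38.01 in AID-Zzz3, 34.5, 38.6, 44.6 and 24.4 in AID-Yeats2, and 51.02, 47.6, 48.3 and 48.3 in Supt7l KO. Every Supt7l KO library was above every other library, and the AID lines were lower than it by -0.36 ± 0.10 (adjusted p = 0.0193). The Orc1 peak also holds the start of Prpf38a, so its signal cannot be assigned to Orc1 alone. Gmnn (chr13:24761176-24762178) gave 65.6, 58.7, 56.1 and 62.9 CPM in WT, 44.6, 55.6, 55.2 and 58.3 in AID-Zzz3, 56.7, 55.02, 48.3 and 53.9 in AID-Yeats2, and 61.6, 63.8, 75.7 and 62.7 in Supt7l KO. Its AID libraries were all below Supt7l KO, with 1 KO library far above the other 3 (log2 -0.30 ± 0.084, adjusted p = 0.0243, edgeR). Cdc6 (chr11:98907535-98908244) gave 27.9, 20.3, 16.9 and 19.1 CPM in WT, 13.98, 17.3, 14.1 and 15.8 in AID-Zzz3, 20.6, 18.7, 17.97 and 8.64 in AID-Yeats2, and 16.9, 20.4, 23.99 and 16.3 in Supt7l KO. WT replicate 1 and AID-Yeats2 replicate 4 stood at the ends, and no comparison called it (-0.46 ± 0.17 in AID-Zzz3, adjusted p = 0.254).

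The 6 MCM proteins form the replication helicase and Cdc45 activates it. None of the 7 promoters was called against WT, and 5 of the 7 were called lower in the AID lines than in Supt7l KO. Of all promoters 24.0% were called lower there, and of the 1556 highest in mean CPM 49.04%. With loess offsets Mcm2 alone of these genes stayed called (adjusted p = 0.0221, edgeR). Mcm7 (chr5:138170922-138172561) gave 79.5, 75.4, 61.2 and 64.5 CPM in WT, 56.6, 59.98, 49.3 and 55.01 in AID-Zzz3, 51.9, 68.99, 56.9 and 44.7 in AID-Yeats2, and 82.4, 74.7, 70.4 and 77.3 in Supt7l KO. All AID-Zzz3 libraries were below WT (-0.34 ± 0.11, adjusted p = 0.126, edgeR), and all 8 AID libraries were below Supt7l KO (-0.45 ± 0.085, 0.000621). The start of Ap4m1 lies in the same peak. Mcm2 (chr6:88898301-88898920) gave 23.1, 21.04, 15.8 and 21.03 CPM in WT, 24.97, 11.3, 18.3 and 13.8 in AID-Zzz3, 13.9, 14.6, 12.8 and 15.2 in AID-Yeats2, and 33.1, 20.6, 23.7 and 16.6 in Supt7l KO. AID-Yeats2 was below all WT libraries (-0.52 ± 0.13, adjusted p = 0.218, edgeR), AID-Zzz3 and Supt7l KO spread widely, and the difference of the AID lines from Supt7l KO was called (-0.61 ± 0.24, 0.00767). Without Supt7l KO replicate 1 that difference was -0.39 (adjusted p = 0.156, edgeR), not called. Its second promoter peak, 171 bp wide, gave 2.71 to 6.71 CPM and was not called.

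Mcm4 (chr16:15636697-15638168) gave 71.7, 61.3, 57.6 and 78.4 CPM in WT, 80.2, 62.9, 64.7 and 61.5 in AID-Zzz3, 66.96, 57.7, 69.7 and 50.7 in AID-Yeats2, and 90.02, 83.5, 86.1 and 70.1 in Supt7l KO. In Supt7l KO 3 of 4 libraries were above all of WT (0.30 ± 0.13, adjusted p = 0.214, edgeR, the smallest of that comparison), and the AID lines were lower than Supt7l KO by -0.36 ± 0.10 (0.00570). Mcm5 (chr8:75108625-75110053), with an E2F match in its sequence, gave 75.4, 68.4, 69.1 and 71.7 CPM in WT, 65.6, 67.4, 63.04 and 75.8 in AID-Zzz3, 61.02, 63.03, 77.3 and 56.9 in AID-Yeats2, and 80.2, 82.5, 72.3 and 85.9 in Supt7l KO. Its groups overlapped in part, and the difference of -0.27 ± 0.076 was called (adjusted p = 0.0289). Cdc45 (chr16:18811125-18812137) gave 36.9, 39.5, 29.3 and 37.3 CPM in WT, 27.96, 34.4, 27.02 and 27.004 in AID-Zzz3, 38.04, 26.9, 31.02 and 23.8 in AID-Yeats2, and 43.4, 41.1, 40.6 and 33.4 in Supt7l KO. AID-Zzz3 replicate 2 was high in its group, and the AID lines were lower than Supt7l KO by -0.43 ± 0.12 (adjusted p = 0.00926, edgeR). Mcm3 and Mcm6, both among the most accessible per kb, had fold changes of -0.15 and -0.20, neither called.

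Pcna, the sliding clamp of the polymerases, was the most accessible of the 41 promoters. Its peak (chr2:132252422-132253521) gave 84.004, 73.3, 71.4 and 84.1 CPM in WT, 70.6, 73.2, 64.2 and 69.5 in AID-Zzz3, 74.1, 68.6, 58.1 and 59.6 in AID-Yeats2, and 96.1, 102, 89.8 and 72.3 in Supt7l KO. In Supt7l KO 3 of 4 libraries lay above all of WT and 1 lay within the AID range. The AID lines were lower than Supt7l KO by -0.43 ± 0.12 (SE; adjusted p = 0.000625, edgeR), and against WT AID-Yeats2 was at -0.27 ± 0.10 (0.241) and Supt7l KO at 0.21 ± 0.12 (0.419), not called. Rrm1, the large subunit of ribonucleotide reductase, ranged from -0.12 to 0.16 against WT, not called.

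Among the mitotic cyclins, Ccnb1 and Ccna2 were called lower in the AID lines than in Supt7l KO. Cyclin B1 with Cdk1 triggers mitosis. Ccnb1 (chr13:100785924-100787026) gave 56.4, 46.01, 48.6 and 48.04 CPM in WT, 47.6, 47.7, 41.1 and 41.8 in AID-Zzz3, 43.98, 47.02, 38.9 and 38.1 in AID-Yeats2, and 69.4, 52.3, 62.1 and 57.7 in Supt7l KO. The 8 AID libraries were below all 4 Supt7l KO libraries (-0.48 ± 0.10, adjusted p = 0.000562, edgeR), and WT overlapped both (0.27 ± 0.11 in Supt7l KO, 0.295). Ccna2, whose cyclin A2 acts in S phase and G2, gave 53.3, 63.8, 60.3 and 65.2 CPM in WT, 53.6, 60.2, 54.9 and 52.01 in AID-Zzz3, 67.4, 55.2, 62.3 and 58.996 in AID-Yeats2, and 71.6, 70.1, 68.3 and 68.8 in Supt7l KO at chr3:36571182-36572585. All 4 Supt7l KO libraries lay above WT and above the AID lines, and the difference from the AID lines was -0.27 ± 0.041 (adjusted p = 0.0375). Ccnb2 (chr9:70421139-70421906) gave 19.6, 24.5, 26.1 and 18.4 CPM in WT, 19.3, 25.8, 16.3 and 17.8 in AID-Zzz3, 15.5, 17.04, 17.7 and 14.9 in AID-Yeats2, and 22.3, 26.2, 19.99 and 19.6 in Supt7l KO. AID-Yeats2 was below all WT libraries without a call (-0.44 ± 0.13, adjusted p = 0.248, edgeR). Cdk1 itself was not called, and all of its Supt7l KO libraries were above WT (0.20 ± 0.068, 0.525).

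Wee1, Chek1 and the Cdc25 phosphatases control Cdk1. Wee1 lays down the inhibitory phosphate, Chek1 restrains the Cdc25 phosphatases after replication stress, and Cdc25b removes the phosphate. The Wee1 peak (chr7:110121299-110123038) gave 64.1, 58.03, 55.4 and 63.3 CPM in WT, 44.9, 39.5, 45.9 and 41.3 in AID-Zzz3, 46.8, 49.7, 39.4 and 45.3 in AID-Yeats2, and 48.6, 66.7, 57.8 and 57.2 in Supt7l KO. All 8 AID libraries were below all 4 WT libraries, and Supt7l KO overlapped WT. Group means were 60.2 ± 4.19 CPM in WT, 42.9 ± 3.01 in AID-Zzz3, 45.3 ± 4.33 in AID-Yeats2 and 57.6 ± 7.42 in Supt7l KO (SD, n = 4). Wee1 was called lower in AID-Zzz3, as given above, and not in AID-Yeats2 by this fit (-0.41 ± 0.086, adjusted p = 0.0685, edgeR), while it was called there with the sets of replicates as a block (0.0336). In the authors' deposited table, whose model may differ from the fit used here, its adjusted p was 0.00691 for AID-Zzz3 and 0.0359 for AID-Yeats2. There 0.544% of all peaks with a value were lower at an adjusted p under 0.05 in AID-Zzz3. The AID-Zzz3 call was lost without AID-Zzz3 replicate 2 (adjusted p = 0.0528) or 4 (0.0719) or WT replicate 1 (0.0886) or 4 (0.0742), and with loess offsets (0.0768). Against Supt7l KO the AID lines were lower by -0.39 ± 0.10 (0.00466).

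Chek1 (chr9:36725824-36727123), described because it was the only member above 0 between the AID lines and Supt7l KO and so chosen after its values were seen, gave 64.6, 58.5, 52.7 and 59.3 CPM in WT, 70.6, 65.04, 62.2 and 64.5 in AID-Zzz3, 65.4, 63.9, 59.8 and 59.6 in AID-Yeats2, and 60.8, 47.2, 65.8 and 56.6 in Supt7l KO. AID-Zzz3 was high in replicate 1, and the groups overlapped. Its fold changes were 0.16 ± 0.071 in AID-Zzz3, 0.08 ± 0.068 in AID-Yeats2 and -0.034 ± 0.12 in Supt7l KO, with none called by TMM scaling. Cdc25b lay between -0.13 and 0.21 against WT, not called.

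**Figure D5:**
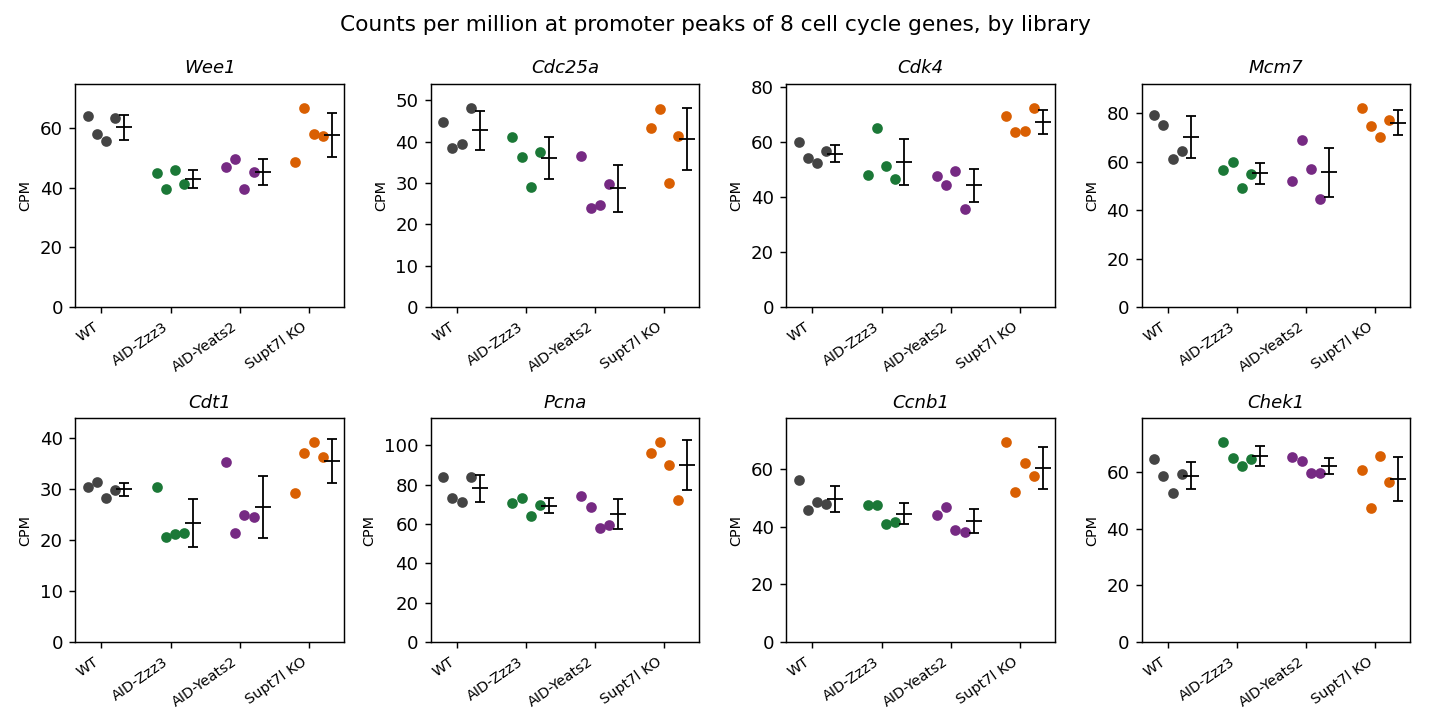
CPM at the promoter peaks of 8 genes in each library (points), with the mean and SD of 4 libraries (bar and whiskers) beside them and the axes starting at 0. Wee1 is lower in all 8 AID libraries than in WT (39.4 to 49.7 against 55.4 to 64.1 CPM), Cdc25a is lowest in AID-Yeats2, and Chek1 overlaps in the 4 groups.

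Plk1 and Aurkb are kinases of mitotic entry and of chromosome segregation. Plk1 (chr7:122158687-122160244) gave 44.3, 46.5, 39.4 and 46.4 CPM in WT, 47.6, 43.1, 41.9 and 40.8 in AID-Zzz3, 36.1, 41.9, 45.8 and 38.1 in AID-Yeats2, and 54.7, 43.6, 48.6 and 59.4 in Supt7l KO. All groups overlapped, and the AID lines were called lower than Supt7l KO (-0.29 ± 0.11, adjusted p = 0.0440, edgeR), a call lost in 8 of 12 omissions of 1 library. Aurkb (chr11:69045485-69046246) gave 20.1, 11.6, 12.2 and 21.5 CPM in WT, 9.65, 12.5, 11.3 and 11.5 in AID-Zzz3, 15.8, 12.9, 10.8 and 16.1 in AID-Yeats2, and 17.7, 14.9, 17.5 and 12.2 in Supt7l KO. WT replicates 1 and 4 were high and replicates 2 and 3 lay among the AID libraries, and the change of -0.53 ± 0.24 in AID-Zzz3 was not called (adjusted p = 0.221). The peak shared by Aurka and Cstf1 was lower in the AID lines than in Supt7l KO (log2 -0.53, adjusted p = 0.000798, edgeR), and it counts as no member's peak because of its name.

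The spindle checkpoint holds chromosomes until all are attached, through Bub1, Bub1b and Mad2l1, and Cdc20 is the activator of the anaphase-promoting complex that it inhibits. Cdc20 (chr4:118436743-118437708), with the CHR and CCAAT boxes shown above, gave 41.9, 36.5, 34.9 and 37.3 CPM in WT, 27.6, 32.5, 22.8 and 25.8 in AID-Zzz3, 43.98, 25.5, 28.8 and 30.99 in AID-Yeats2, and 43.7, 42.8, 34.8 and 31.8 in Supt7l KO. All AID-Zzz3 libraries were below WT (-0.47 ± 0.12, adjusted p = 0.0997, edgeR), AID-Yeats2 spread over the whole range, and the AID lines were called lower than Supt7l KO (-0.39 ± 0.15, 0.0244). Mad2l1 (chr6:66534868-66535942) gave 75.8, 59.9, 71.95 and 72.9 CPM in WT, 67.6, 70.6, 77.1 and 68.3 in AID-Zzz3, 63.8, 66.1, 61.3 and 63.5 in AID-Yeats2, and 88.3, 77.9, 75.97 and 74.6 in Supt7l KO. AID-Yeats2 lay below all AID-Zzz3 libraries, as in 1.5% of all promoters, and nothing was called (smallest adjusted p = 0.0574, against Supt7l KO). Bub1 (chr2:127831403-127832071), low in level, gave 18.4, 20.8, 12.1 and 16.97 CPM in WT, 15.3, 16.6, 8.44 and 17.3 in AID-Zzz3, 12.7, 16.2, 20.2 and 16.4 in AID-Yeats2, and 20.8, 18.7, 20.9 and 13.8 in Supt7l KO. AID-Zzz3 replicate 3 was lowest, and the groups overlapped. Bub1b was at -0.29 ± 0.076 between the AID lines and Supt7l KO (adjusted p = 0.122). Of the 2 genes of chromosome structure, Mki67 (chr7:135715669-135716972) gave 29.4, 24.5, 36.3 and 29.4 CPM in WT, 25.96, 32.04, 27.3 and 22.3 in AID-Zzz3, 19.8, 26.3, 18.5 and 25.03 in AID-Yeats2, and 28.2, 28.96, 27.99 and 26.2 in Supt7l KO. AID-Yeats2 replicates 1 and 3 were below all WT libraries, and the change of -0.41 ± 0.17 was not called (adjusted p = 0.201, edgeR). Top2a, the topoisomerase that untangles sister chromatids, was at -0.084, -0.21 and 0.038 in the 3 mutants, not called.

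Away from promoters, 51 further peaks carried the name of a member, 41 of them of G1/S genes and 10 of G2/M genes. None was called against WT in any of the 3 mutants by edgeR, beside 0.755% of all peaks over 1000 bp from a start called higher and 0.177% lower in AID-Zzz3, 0.641% and 0.132% in AID-Yeats2, and 0.285% and 0.885% in Supt7l KO. Between the AID lines and Supt7l KO 2 were higher and 3 lower, beside 10.5% and 4.42%. The 2 higher ones lay 35180 and 17131 bp upstream of the nearest annotated start of Cdk6, in intergenic DNA, and the table annotates the farther one as L1 and the nearer one as ERVL repeat sequence. The nearer one (chr5:3323850-3324858) gave 26.6, 35.4, 37.95 and 32.5 CPM in WT, 43.6, 46.2, 32.1 and 37.5 in AID-Zzz3, 55.1, 36.96, 43.1 and 41.1 in AID-Yeats2, and 32.6, 24.3, 23.7 and 22.6 in Supt7l KO. All but 1 AID library were above all Supt7l KO libraries, with a log2 fold change of 0.69 (adjusted p = 9.9e-05, edgeR), while the Cdk6 promoter itself was at -0.30 (0.0861). The farther one (chr5:3305843-3306767) gave 9.66 to 13.6 CPM in Supt7l KO, 13.05 to 31.3 in the AID lines and 12.1 to 23.1 in WT, with a change of 0.90 (0.000586). The 3 lower ones lay 5287 bp upstream of Aurkb (log2 -0.49, adjusted p = 0.0186), in an intron of Ccnd3 (-0.38, 0.0243) and 13917 bp from Ccne1 (-0.30, 0.0166). Against WT, the smallest adjusted p was 0.0580 at a peak 3051 bp upstream of Cdt1 (log2 -0.80 in AID-Yeats2), where the AID-Yeats2 libraries gave 8.72, 8.83, 8.12 and 7.45 CPM and the WT libraries 18.4, 11.3, 15.3 and 12.4, so that the groups did not overlap. In AID-Zzz3 the smallest was that of the Ccnd3 intron peak (-0.48, adjusted p = 0.0848, edgeR), and in Supt7l KO those of the Cdk6 peaks (-0.54 and -0.35, adjusted p = 0.256 and 0.275).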

How the data were processed

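ATAC-seq libraries of mouse E14 ES cells were analysed from the count table the authors deposited, which holds raw counts per library for 70150 merged peaks, with the distance in bp to the nearest Ensembl TSS and the gene name. Reads had been processed with Bowtie2 2.2.6, MACS2 2.1.1.20160309, bedtools 2.26.0, HOMER and DESeq2 1.16.1 on mm10, per the submitters' processing notes. How these tools were combined is not given in the sources used here. The log2 fold changes and the p-values the authors deposited for 4 comparisons are quoted only as theirs. They were deposited under a name that holds batch and day, so the authors' fit may have a term that the fit used here lacks. A further 16 columns of normalised values per library were not used.

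Counts were scaled by TMM and fitted in edgeR 4.0.16 (R 4.3.3, limma 3.58.1) with quasi-likelihood F-tests, two-sided, over all 16 libraries with 4 group means and no covariate. After filterByExpr 69692 peaks were tested in 5 contrasts, adjusted by Benjamini-Hochberg over all of them. Log2 CPM used a prior count of 2, and standard errors come from the library values. The code was tested on simulated data. Values are printed for members called in any comparison, for the 3 smallest p-values per class against WT, and for the 2 highest and 2 lowest levels per class. Among peaks far from a start, called ones are named, and otherwise those with the smallest p against WT. Chek1 was added after its values were seen. The members, classes, lists and this rule were chosen with earlier results of these data known. Alternatives were DESeq2 1.42.0, other scalings, filters, windows and peaks per gene, blocks, sets of replicates and omission of each library. The labels give replicate numbers 1 to 4 in each group. Same-numbered libraries of different groups deviated together with correlations of 0.0163 to 0.111, with 1 of 24 over 0.1, and so did libraries of the same set (replicates 1 and 2, or 3 and 4) with another number. The numbers were therefore not treated as pairs. Counts of PCR-amplified fragments are not independent molecules, and with 29 to 484 counts per peak and library counting error alone is a large part of the spread of the lower peaks.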

Additional observations from a re-analysis of the deposited data

Results flagged for a closer look

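In 5 of 112 groups of 4 libraries at the named promoters 1 library stood apart from the other 3, where chance flags about 1 in 20 groups, or 5.6 of 112. They were the highest AID-Zzz3 library at Cdc45 (34.4 CPM), at Cdt1 (30.3 CPM) and at Orc1 (46.97 CPM), the lowest WT library at E2f2 (21.0 CPM) and the highest Supt7l KO library at Gmnn (75.7 CPM). The calls of Cdc45 and Cdt1 between the AID lines and Supt7l KO stood in every omission of 1 library.

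Between the ATAC subunit lines and Supt7l KO, 20 promoters differed by the contrast itself, on the log2 scale and with an adjusted p under 0.05 (edgeR). Among genes of replication they were Mcm2 (-0.61), Cdt1 (-0.53), Mcm7 (-0.45), Cdc45 (-0.43), Pcna (-0.43), Mcm4 (-0.36), Orc1 (-0.36), Gmnn (-0.30) and Mcm5 (-0.27). Among genes of S phase entry they were E2f2 (-0.50), Cdk4 (-0.48), E2f3 (-0.39), Cdc25a (-0.36), Ccne2 (-0.34) and Cdkn1b (-0.30), and among those of G2 and mitosis Ccnb1 (-0.48), Cdc20 (-0.39), Wee1 (-0.39), Plk1 (-0.29) and Ccna2 (-0.27). All of these are lower in the AID lines, as were 24.0% of all promoters.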

How the results depend on the processing

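Of 312 values of summaries under alternatives, 270 stayed within a tolerance and 42 moved. For medians and class differences the tolerance was the SD between the libraries of a mutant group. For counts it allowed an equal or a similar non-zero number. A change of sign was not part of this rule. Of 726 values of named peaks, 604 kept their side of the threshold, 117 lost and 5 gained a call, and none changed direction while called. The 604 include values of results not called in the main fit, which had no call to lose. The 117 losses all fall on the called results, so the pooled share does not measure how stable the calls are. In AID-Zzz3 against WT 1 member was called, and there were 0 with loess offsets, 2 with a replicate block of the sets 1-2 and 3-4, and 0 in replicates 1 and 2 or in replicates 3 and 4 alone. Its median of -0.17 became -0.085 with loess offsets and -0.094 in replicates 1 and 2, and the G1/S minus G2/M difference was 0.030 in replicates 3 and 4. In AID-Yeats2 the count of 1 became 0 with loess offsets, 2 with the replicate block, 3 with the block of sets and 0 in either pair of replicates, and the median was -0.11 with loess offsets. In Supt7l KO the median was 0.043 with loess offsets, and the class difference was -0.015 without Ccna2, Chek1, Wee1, Gmnn and Cdkn1b. For the AID lines against Supt7l KO 20 calls became 11 with library totals alone, 3 with loess offsets, 6 in replicates 1 and 2 and 7 in replicates 3 and 4, where fewer libraries enter. That median was -0.23 with totals, -0.16 with loess offsets and -0.36 in replicates 3 and 4, and the class difference 0.022 with loess offsets and -0.098 in replicates 3 and 4. Of the 20 called genes, 20 kept the call with DESeq2, 11 with totals and 2 with loess offsets. Leaving out 1 library gave 0 to 1 calls, medians of -0.20 to -0.13 and class differences of -0.12 to -0.00025 in AID-Zzz3. It gave 0 to 2, -0.24 to -0.17 and -0.10 to -0.034 in AID-Yeats2, and 0 calls, 0.10 to 0.15 and -0.021 to 0.080 in Supt7l KO. Between the AID lines it gave 0 calls, -0.084 to -0.032 and -0.023 to 0.025, and against Supt7l KO 10 to 20 calls, -0.35 to -0.29 and -0.084 to -0.022. With the replicate block Wee1 was called also in AID-Yeats2 (adjusted p = 0.0328, edgeR), and the call count against Supt7l KO was 22 with either block. The median over all promoters for that comparison shifted from -0.21 to -0.15 with totals and to -0.10 with loess offsets. The cause of these changes was not tested.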

Other observations

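Further cell cycle genes, in 6 lists of 147 genes of which 133 had a promoter peak, gave values near those of the 46 genes. Their median log2 fold change was -0.17 in AID-Zzz3, -0.19 in AID-Yeats2, 0.12 in Supt7l KO and -0.29 for the AID lines against Supt7l KO, beside -0.11, -0.12, 0.090 and -0.21 for all promoters. In AID-Zzz3 Tfdp1, the dimer partner of the E2F factors, was the only 1 of the 133 called (-0.86, adjusted p = 0.0279, edgeR). There 0.913% of all promoters were called lower and 0.302% higher. In AID-Yeats2 the only 1 was Pola1, the catalytic subunit of DNA polymerase alpha (-0.66, adjusted p = 0.0125, edgeR). There the shares of all promoters were 0.849% and 0.186%, so both counts were near those of all promoters.

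Between the AID lines and Supt7l KO 47 of the 133 were called lower and none higher (edgeR), where 24.0% of all promoters were called lower. The genes of the anaphase-promoting complex had 7 of 15 called and a median of -0.33, and all 15 were below 0, beside 76.2% of all promoters. A list of other Cdk inhibitor genes with Cdk7, Ccnh, Mnat1, Cks1b, Cks2, Ccnf, Cdc34 and Fbxw7 had 8 of 14 called (median -0.30). Other genes of origins and forks had 11 of 37 (-0.28), and other genes of the spindle and of chromosome segregation 13 of 40 (-0.30). Other E2F, RB and DREAM genes had 5 of 15 (-0.24), and genes of the DNA damage checkpoint 3 of 12 (-0.27).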
